A study of Mus musculus with 12 samples.

Results

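Forkhead genes encode transcription factors that share a winged-helix DNA-binding domain and are named Fox, then a letter for the subfamily and a number. They were taken as every gene whose platform symbol is Fox, 1 letter and a number, which gave 37 of the 18193 genes named on the array. A gene was read from the brightest of the probe sets that carry its symbol alone, by the mean of 12 arrays, and the 37 genes together have 82 such probe sets. The symbols Foxl2os, Foxred1 and Foxred2 fall outside the rule. A further 2 probe sets that carry a forkhead symbol beside another gene's symbol, Foxo3 in the one and Foxm1 in the other, were not used.

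The arrays hold RNA of mouse embryonic stem cells of the TBV2 line, strain 129/SvP. Control cells (ESCs) were kept for 5 days on gelatin without feeder cells, in medium with leukemia inhibitory factor (LIF) and no added non-essential amino acids, and proline cells (PiCs) in the same medium with 500 µM L-proline. Both groups are thus 1 cell line in LIF, with 2 numbered biological replicates of 3 lettered arrays each. The labels leave the letters unexplained, and the 3 arrays of a number were therefore averaged. Whether the biological replicates were separate cultures is not stated either. The p-values below therefore measure the spread between these replicates, which may be technical, and in bulk RNA fewer cells with a transcript and less transcript per cell cannot be told apart.

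As background, forkhead factors bind closely related DNA sites and differ by where and when they are expressed. In pluripotent cells and the early embryo, FOXH1 carries Nodal and activin signals to DNA together with SMAD2, SMAD3 and SMAD4. FOXD3 is required to keep epiblast and embryonic stem cells pluripotent and later acts in the neural crest, FOXA factors open chromatin in endoderm, and FOXO factors are held out of the nucleus by insulin and AKT signalling.

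None of the 8 markers of embryonic stem cells was dim in both groups, dim meaning a log2 signal under 5.36, the 40th percentile of probe set means, where signal is not separated from background here. Of these markers 2 fell, Esrrb and Zfp42, and 6 did not pass the test, where 1.34% of all genes were called lower. All 8 measured below 0, and their median log2 fold change after proline was -0.45 against -0.03 over all genes. Their summed signal was 15.95 and 16.00 in the control replicates and 15.52 and 15.47 in the proline replicates (log2). Pou5f1, which encodes Oct4, measured 13.56 and 13.32 in controls and 13.44 and 12.87 after proline. Over all probe sets, correlations were 0.996 to 0.998 within a biological replicate, 0.985 to 0.989 between the replicates of a group and 0.962 to 0.981 between groups. The beta-actin control probes gave a log2 ratio of 5′ over 3′ signal that was 0.25 higher after proline, less than the differences between replicates (-0.90 and -0.50 in controls, -0.66 and -0.24 after proline). That of Gapdh was 0.06 higher, and the log2 signal for 18S ribosomal RNA differed by -1.35. The part of these array controls in the results below was not tested.

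Foxh1 was the forkhead gene with the largest change. Its log2 signal was 8.37 and 8.21 in the 2 control replicates and 10.30 and 10.07 in the proline replicates. All 6 proline arrays (9.95 to 10.38) lay above all 6 control arrays (8.06 to 8.49), so the groups were separated by more than the spread of either. The means were 8.29 ± 0.11 and 10.19 ± 0.17 (SD, n = 2 biological replicates), a 3.73-fold rise (log2 fold change 1.90 ± 0.14, moderated SE, limma adjusted p = 0.0246). Of the 18193 genes, 255 had a larger absolute change, or 1.40%. Both other probe sets of Foxh1 gave a similar size, 1.52 ± 0.13 and 1.82 ± 0.23, and on each of them the 6 proline arrays were again above the 6 control arrays.

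Foxj2, a broadly expressed forkhead activator, was the other member past the threshold. It measured 7.12 and 7.05 in control and 7.92 and 7.83 in proline replicates, a rise of 0.79 ± 0.11 on the log2 scale, or 1.73-fold (limma adjusted p = 0.0426). The control arrays ended at 7.17 and the proline arrays began at 7.74. Its second probe set, whose control signals of 4.87 and 5.10 lie under the dim limit, measured 0.31 ± 0.13 with overlapping arrays. With the median over both probe sets, the log2 fold change of Foxj2 was 0.55 and it did not pass (adjusted p = 0.0855), and with an intensity trend in the limma prior the adjusted p was 0.0603.

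Foxd3 lay just outside the threshold, in the other direction. It measured 8.15 and 8.21 in control and 7.50 and 7.31 in proline replicates, a log2 fold change of -0.77 ± 0.13 (limma adjusted p = 0.0505). No array of the groups overlapped, with control arrays from 7.99 to 8.29 and proline arrays from 7.19 to 7.57. The 95% interval of the difference ran from -1.11 to -0.44. After median centring of the arrays its adjusted p was 0.0497, and among genes at or above the 40th percentile it was 0.0486, but it was 0.0731 with an intensity trend, 0.0628 in the fit of probe set medians, 0.0840 with every probe set tested by itself and 0.0892 to 0.188 with a replicate left out. The call therefore turns on the choice of fit; with a replicate left out the size was between -0.87 and -0.68. Foxd3 has 1 probe set here.

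**Figure D1:**
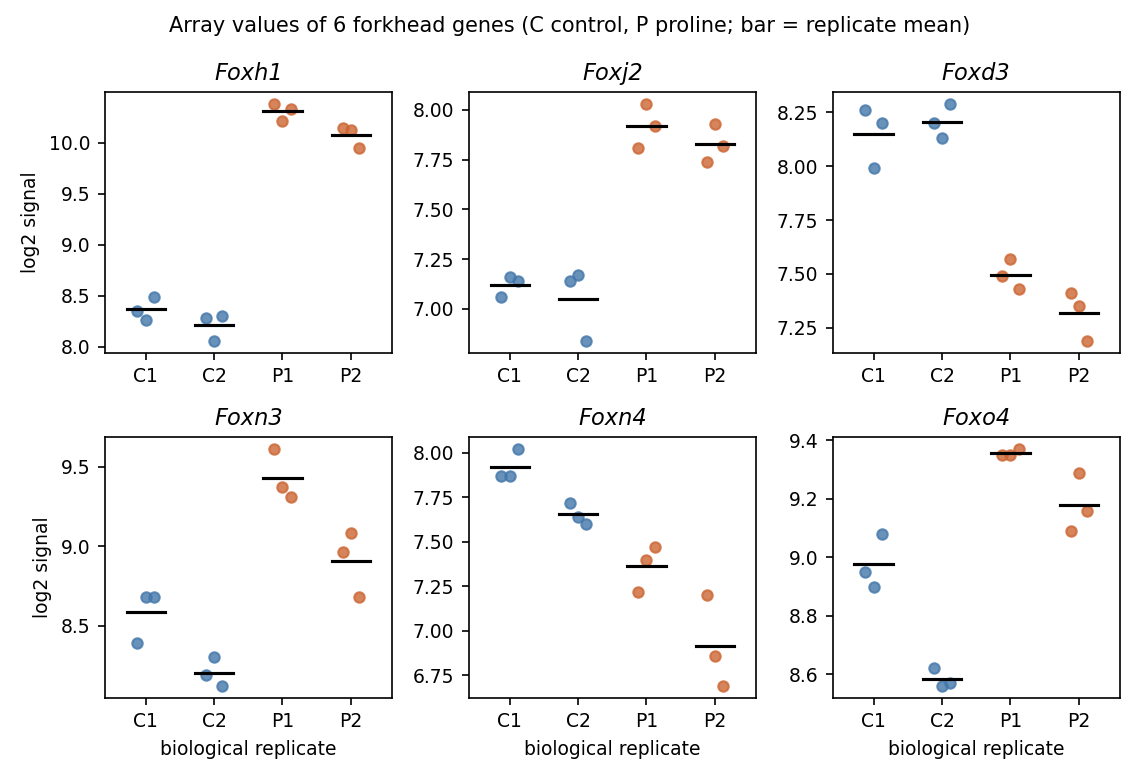
Log2 signals of 6 forkhead genes on the 12 arrays, grouped by biological replicate (C1 and C2 control, P1 and P2 proline); points are arrays, black bars are replicate means, and each panel has its own vertical range, which does not start at 0. Foxh1, Foxj2 and Foxd3 separate the groups with a clear gap, while in Foxo4 the groups are 0.01 apart and in Foxn3 they overlap.

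Promoter sequence was looked up for the genes in the 300 bases from 250 before to 50 after a RefSeq start site (build GRCm38.p6). The table held 29 promoters of 24 forkhead genes. Shown are those of Foxj2, which passed the threshold, and of Foxd3, which lay just outside it. Foxh1, the other member past the threshold, had no promoter among the 29. Only the 250 bases before the start site are printed, 5′ to 3′. Capitals mark matches to the motifs given next.

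Foxj2, chr6:122819934-122820183, plus strand: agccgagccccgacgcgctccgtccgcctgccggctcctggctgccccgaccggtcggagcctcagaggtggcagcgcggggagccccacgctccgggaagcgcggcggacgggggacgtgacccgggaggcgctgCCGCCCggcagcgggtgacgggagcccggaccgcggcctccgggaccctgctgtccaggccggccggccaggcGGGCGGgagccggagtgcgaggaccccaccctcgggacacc
Foxd3, chr4:99656049-99656298, plus strand: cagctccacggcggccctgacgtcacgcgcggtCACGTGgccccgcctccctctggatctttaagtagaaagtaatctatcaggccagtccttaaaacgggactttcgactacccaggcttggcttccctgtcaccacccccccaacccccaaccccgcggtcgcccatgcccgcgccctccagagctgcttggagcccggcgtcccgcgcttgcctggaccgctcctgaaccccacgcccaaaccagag

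Searched on both strands were the forkhead core TGTTTAC, the POU octamer ATGCAAAT, the E-box CACGTG, the SP1 core GGGCGG and the NFY core CCAAT; no match overlaps another in these sequences. Foxj2 holds the SP1 core from base -41 on the plus strand and from base -114 on the minus strand, and Foxd3 the E-box from base -217. The SP1 core occurred in 21 of the 29 forkhead promoters (72.4%) and in 35.7% of all 32851 promoters in the table. The forkhead core itself occurred in 1 forkhead promoter, that of Foxa1 (3.45%), against 3.65% of all promoters. Median GC content was 63.0% in forkhead and 52.7% in all promoters, and the median ratio of observed to expected CpG was 0.688 and 0.384. GC content was 78.3% for Foxj2 and 65.7% for Foxd3, so both are GC-rich although their log2 fold changes differ in sign. A match is a description of the letters, and some genes have more than 1 promoter in the table.

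Counted over the family, 2 of 37 members rose, 0 fell and 35 did not pass an adjusted p of 0.05 in limma. Over all genes, 3.03% were called higher and 1.34% lower. The members' 5.41% stands beside 4.36% for all genes in either direction, so the share called is near the background. At an unadjusted p under 0.05 the family held 5 higher and 3 lower members, or 21.6%, where all genes had 12.7% higher and 9.32% lower. The 6 proline arrays were all above the 6 control arrays in 4 members and all below in 2, against 13.8% and 10.8% of all genes. Only Foxh1 among the members differed at least 2-fold between group means (2.70%), against 6.93% of all genes.

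The middle of the family lay near 0. The median log2 fold change was 0.016 over the members and -0.033 over all genes, with 20 members above 0 and 17 below. The quartiles were -0.20 and 0.31 for the members, -0.18 and 0.18 for all genes. In 10 of 37 members (27.0%) the difference between groups was larger than the differences between replicates of both groups, and 39.9% of all genes were so. Leaving out any 1 of the 4 biological replicates left 0 genes of the 18193, and so neither Foxh1 nor Foxj2, past the threshold in limma, with 5 to 8 members at an unadjusted p under 0.05. Foxh1 then still measured between 1.78 and 2.02, and Foxj2 between 0.75 and 0.84.

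**Figure D2:**
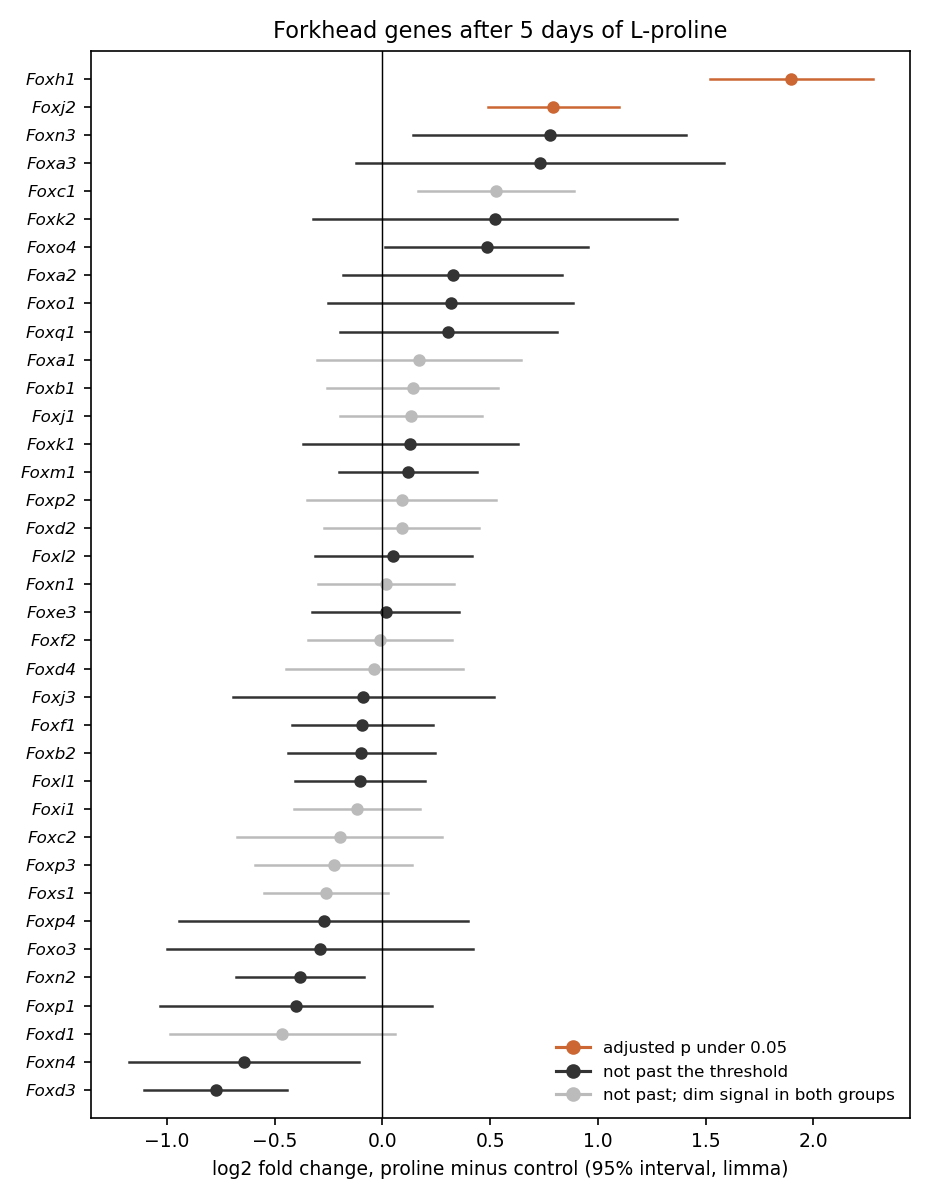
Log2 fold change of each of the 37 forkhead genes, proline minus control, as points with 95% intervals from limma (4 replicate means); orange marks an adjusted p under 0.05 and light grey a signal under the dim limit in both groups. Foxh1 at 1.90 stands apart from the rest, which lie between -0.77 and 0.79.

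Many forkhead genes act in later tissues, and part of the family had low signals here. In 14 of 37 members (37.8%) both group means lay under the dim limit, against 28.4% of all genes. They are Foxa1, Foxb1, Foxc1, Foxc2, Foxd1, Foxd2, Foxd4, Foxf2, Foxi1, Foxj1, Foxn1, Foxp2, Foxp3 and Foxs1. Foxp2 is among them by its brightest probe set, but another of its probe sets measured 5.60 and 5.89 after proline, above the limit. Their median absolute log2 fold change was 0.14, and that of the other 23 members 0.32. For the dim members a fold is not exact.

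**Figure D3:**
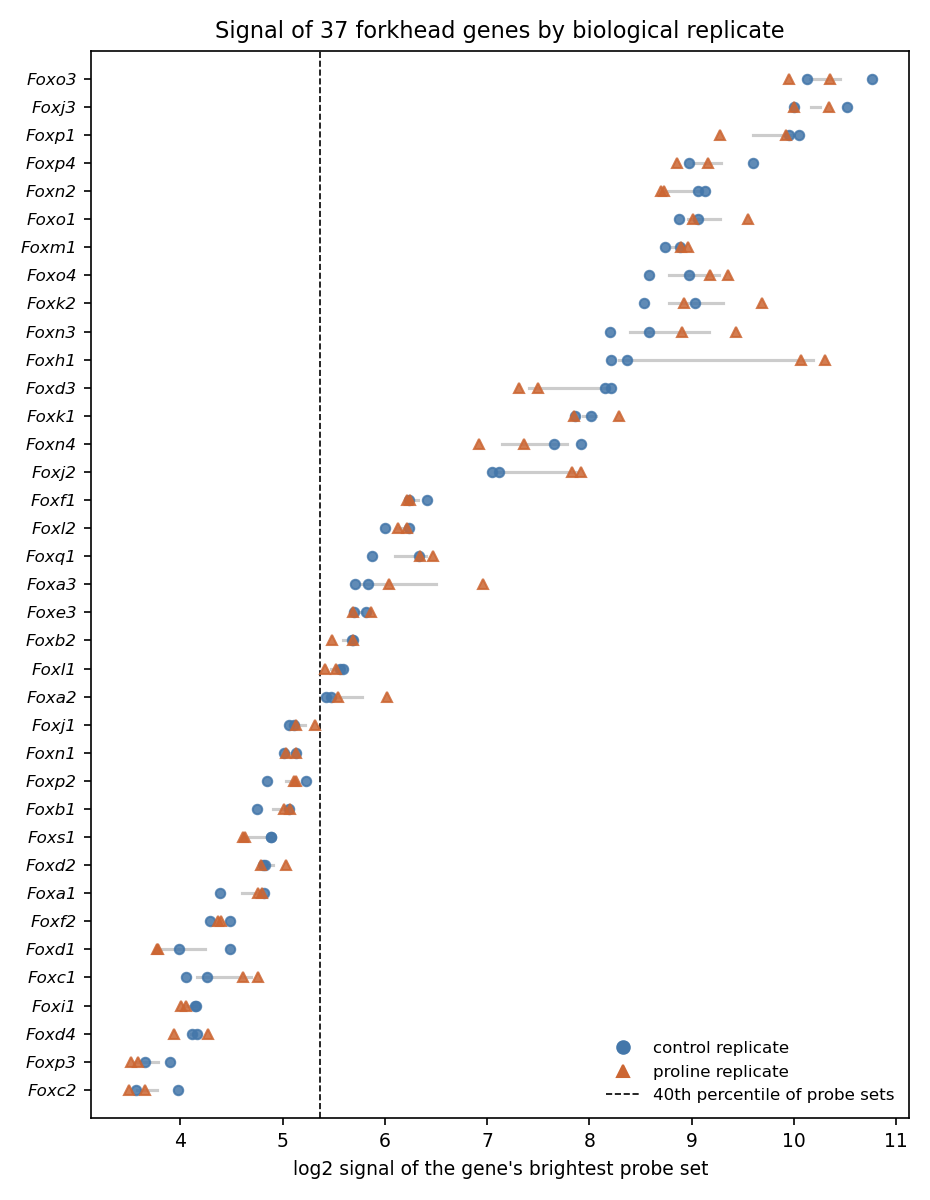
Log2 signal of each forkhead gene's brightest probe set in the 2 control replicates (circles) and the 2 proline replicates (triangles), with grey lines joining the group means and a dashed line at 5.36. Signals of different probe sets are not amounts of transcript, so the order of genes is only an order of probe set signals; the gap of Foxh1 is the widest.

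In the FOXD subfamily, Foxd3 was the member with signal well above the dim limit. Foxd1, of kidney stroma and the optic chiasm, measured 4.49 and 3.99 in controls and 3.78 and 3.77 after proline (adjusted p = 0.274), Foxd2 0.09 ± 0.14 and Foxd4 -0.04 ± 0.16 as log2 fold changes. All of these lay under the dim limit. Among the neural crest and pluripotency partners of FOXD3, 2 of 17 measured genes rose, 1 fell and 14 did not pass, against 3.03% higher and 1.34% lower over all genes. Esrrb, a naive pluripotency factor, fell by 1.49 on the log2 scale (adjusted p = 0.0246), and the mesenchymal and crest genes Twist1 and Msx1 rose. Msx1 measured 1.15, and Twist1 1.24, which is not an exact fold since its control signal of 4.87 lay under the dim limit. The median of this list was 0.07, beside -0.03 over all genes. None of the 5 neural crest markers passed, with a summed signal of 8.51 and 8.34 in controls and 8.34 and 8.28 after proline.

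Foxh1 was read beside the other genes of Nodal signalling, of which 22 were measured. Of them 3 rose, 0 fell and 19 did not pass, and their median log2 fold change was 0.40 against -0.03 over all genes, of which 3.03% were called higher and 1.34% lower. The increases were in the T-box factor Eomes (2.51, adjusted p = 0.0246), the Nodal antagonist Lefty2 (1.31) and the activin receptor Acvr2b (0.98). Mixl1, a homeobox gene of the primitive streak, measured 2.96 (limma adjusted p = 0.0559). The antagonist Lefty1 measured 1.67 and the Nodal-processing convertase gene Pcsk6 -0.80 (adjusted p = 0.0676 for both). Among genes of this list with an adjusted p between 0.05 and 0.1, only Pcsk6 lay below 0. The ligand Nodal itself measured 10.63 ± 0.29 in controls and 10.90 ± 0.15 after proline (SD, n = 2), with overlapping arrays (limma adjusted p = 0.501). The SMAD partners measured -0.36 for Smad2, 0.31 for Smad3 and 0.58 for Smad4 (limma adjusted p = 0.0668), and none of these passed. The co-receptor Tdgf1 measured -0.15. Furin measured 1.11 (limma adjusted p = 0.0830) and Cfc1 0.54 (adjusted p = 0.0885), each with all proline arrays above all control arrays. The gene lists were chosen with earlier results in view, so these counts are a description.

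The FOXO factors, which insulin and AKT signalling keep out of the nucleus, showed no member past the threshold. Foxo1 measured 9.06 and 8.87 in controls and 9.55 and 9.01 after proline (0.32 ± 0.22, adjusted p = 0.492), and its 4 probe sets lay between 0.001 and 0.35. Without proline replicate 1 it measured 0.05, and without proline replicate 2 0.58. Foxo3 measured 10.76 and 10.13 in controls and 10.36 and 9.95 after proline (-0.29 ± 0.27, adjusted p = 0.624). Foxo4 measured 8.98 and 8.59 against 9.35 and 9.18, a log2 fold change of 0.48 ± 0.18 (adjusted p = 0.216). Its proline arrays began 0.01 above its highest control array, and its dimmer probe set measured -0.02. The controls of Foxo3 and Foxo4 differed by 0.63 and 0.39 between replicates, which is wide beside these differences.

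FOXO target genes numbered 25, of which 2 rose and 1 fell (all genes 3.03% and 1.34%), and their median was 0.07 beside -0.03 over all genes. Irs2, an insulin receptor substrate, rose by 2.20 ± 0.29, and the insulin receptor gene Insr by 1.99 ± 0.18. The mitochondrial superoxide dismutase gene Sod2 fell by 1.03 on the log2 scale. Gabarapl1, an autophagy gene, measured 0.77 (adjusted p = 0.0739). Upstream regulators of FOXO numbered 18, of which 2 rose and 0 fell (all genes 3.03% and 1.34%), and their median was -0.02. Irs1 rose by 3.68 ± 0.57 and the AKT phosphatase gene Phlpp1 by 1.14 ± 0.17. Irs1 measured 5.33 and 6.97 in controls and 9.58 and 10.08 after proline. Its fold is not exact, since the controls differed widely and control replicate 1 lay under the dim limit. Igf1r measured 1.31 (adjusted p = 0.0712) and Sgk1 -0.94, which did not pass either.

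The FOXA factors are pioneer factors of endoderm. Foxa2 measured 5.42 and 5.48 in controls and 5.54 and 6.01 after proline (0.33 ± 0.19, adjusted p = 0.424), so the difference came mostly from proline replicate 2. Foxa1 measured 4.82 and 4.39 in controls and 4.76 and 4.80 after proline, with overlapping groups. Foxa3, a hepatic and gut factor, measured 5.71 and 5.83 in controls and 6.96 and 6.04 after proline (0.73 ± 0.32, adjusted p = 0.288), and here replicate 1 was the high one. The pair of proline replicates thus disagreed in Foxa2 and Foxa3, and in opposite order. Of 19 measured endoderm genes, 1 rose, the epithelial gene Epcam (1.25 ± 0.18), and 18 did not pass (all genes 3.03% higher), with a median of 0.05. Definitive endoderm markers had a summed signal of 8.25 and 8.18 in controls and 8.08 and 8.35 after proline. Of these, 4 of 6, among them Sox17 and Gsc, had group means under the dim limit in both groups. Gsc measured 0.985 (limma adjusted p = 0.182), with all proline arrays above all control arrays, and Sox17 -0.11 with overlapping arrays. Of the 6 markers, 3 measured above 0, with a median of -0.015. Primitive and visceral endoderm markers summed to 8.74 and 8.90 in controls and 9.59 and 9.78 after proline, with 0 of 7 past the threshold. Of these, Dab2 measured 1.68 (limma adjusted p = 0.0545) and Amn 0.89 (adjusted p = 0.0582). The others lay between -0.06 and 0.24. The median of the markers was 0.05, with 6 of 7 above 0 and 2 under the dim limit in both groups. Whether they rose as a set was not tested.

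FOXP and FOXK factors act largely as repressors. Foxp1, an isoform of which acts in pluripotent cells, measured 9.95 and 10.05 in controls and 9.92 and 9.28 after proline (-0.40 ± 0.24, adjusted p = 0.429), so proline replicate 2 was the low one. It is read by 8 probe sets, 7 of them below 0, and they ranged from -0.59 to 0.12. Foxp4 measured 9.60 and 8.97 against 9.16 and 8.86, and its 3 probe sets lay between -0.27 and -0.25. Foxp3, the factor of regulatory T cells, was dim, at 3.90 and 3.65 against 3.52 and 3.58. Foxk1 measured 7.86 and 8.01 against 7.85 and 8.29. Foxk2, a relative that also represses autophagy genes, measured 8.53 and 9.03 against 8.92 and 9.69 (0.52 ± 0.32, adjusted p = 0.442), with replicate 2 higher in both groups. Among 20 measured corepressors of these factors, 1 rose, the NuRD subunit gene Mta1 (0.82 ± 0.11), and 19 did not pass (all genes 3.03% higher), with a median of 0.08.

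Foxp2, a gene of developing neurons and lung, depends on which probe set is read. Its brightest, used above, measured 5.22 and 4.85 in controls and 5.13 and 5.11 after proline, a log2 fold change of 0.09 ± 0.17. A second probe set went from 4.10 and 4.44 to 5.60 and 5.89 (1.47 ± 0.18), a further one from 4.47 and 4.46 to 5.53 and 5.31 (0.96 ± 0.13), and another from 2.90 and 2.60 to 3.65 and 3.54 (0.84 ± 0.15). On those 3 probe sets, all 6 proline arrays lay above all 6 control arrays, and all 6 probe sets of the gene measured above 0. With every probe set tested by itself in limma, their adjusted p-values were 0.0654, 0.0682 and 0.0998, and none passed. In the same fit Foxh1 did not pass either (adjusted p = 0.0517), and 45 probe sets in all did. The median over the 6 probe sets gave 0.68 (adjusted p = 0.113). Control signals of all 6 were under the dim limit, so no fold is exact, and Foxp2 was singled out after its values were seen.

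Of the 21 members with more than 1 probe set, 15 had all of them on the same side of 0. Foxn3, a repressor linked to cell cycle checkpoints, was above 0 on 4 of 4, from 0.59 to 0.90. Its brightest measured 8.59 and 8.20 in controls and 9.43 and 8.91 after proline (0.78 ± 0.24, adjusted p = 0.160). On its other 3 probe sets, but not on this one, the proline arrays were all above the control arrays. Foxk1 was split, with 0.13 and 0.14 on a pair of probe sets and -0.42 on the other. Foxk2 had 4 of 5 above 0, the largest of them 0.81 ± 0.25.

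**Figure D4:**
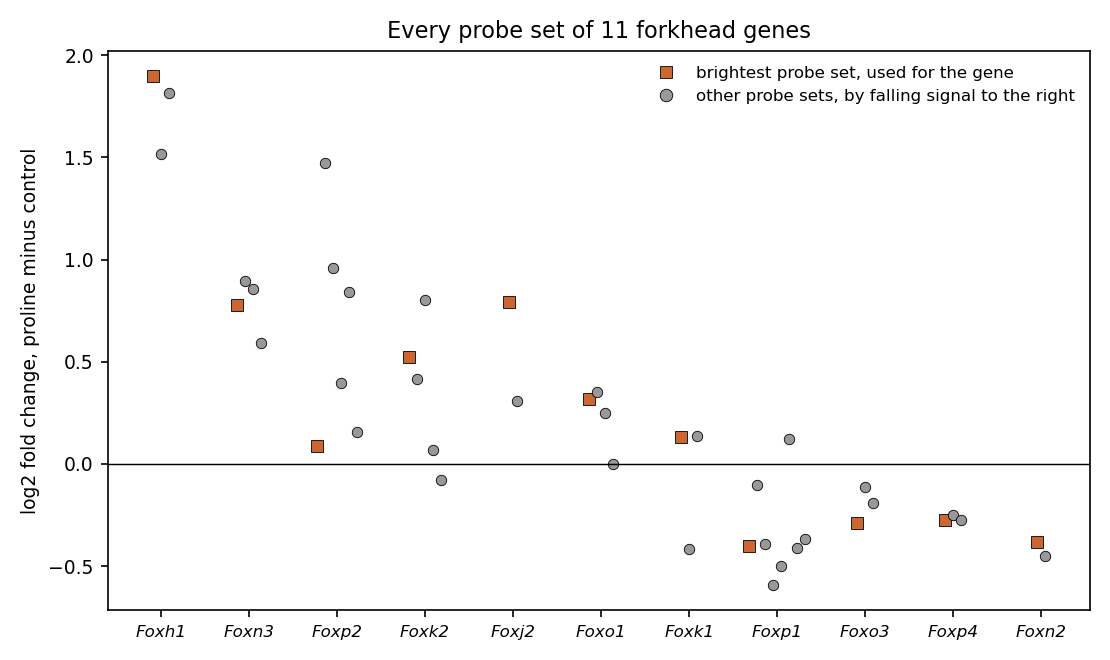
Log2 fold change, proline minus control, of every single-symbol probe set of 11 forkhead genes; orange squares mark the brightest probe set, used for the gene, and grey circles the others. The 3 probe sets of Foxh1 lie together at 1.52 to 1.90, whereas those of Foxp2 spread from 0.09 to 1.47 with the square at the bottom.

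The FOXN subfamily holds members on both sides. Foxn4, of retinal and spinal interneuron precursors, measured 7.92 and 7.65 in controls and 7.36 and 6.92 after proline (-0.64 ± 0.20, adjusted p = 0.165), and its arrays did not overlap. Foxn2 measured 9.06 and 9.13 against 8.73 and 8.69 (-0.38 ± 0.11, adjusted p = 0.147). Its 2 probe sets gave -0.38 and -0.45; arrays of the groups overlapped on the brighter and did not on the other. Foxn1, the factor of thymic epithelium, measured 0.02 ± 0.12 at a dim signal.

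FOXM1 drives mitotic genes and FOXJ1 the genes of motile cilia. Foxm1 measured 8.74 and 8.88 in controls and 8.90 and 8.96 after proline (0.12 ± 0.12, adjusted p = 0.667), with a 95% interval from -0.20 to 0.44. Another of its 4 probe sets measured 0.52 ± 0.22 with all proline arrays above all control arrays, and the median over probe sets was 0.31 (adjusted p = 0.393). Its targets and partners held 0 genes past the threshold among 21 measured, where 3.03% of all genes were called higher and 1.34% lower. At an unadjusted p under 0.05 in limma there were 2 of them, where 22.1% of all genes passed. These were Mybl2 (-0.89, adjusted p = 0.0633) and Bub1b (-0.34). Foxj1 measured 5.07 and 5.11 against 5.13 and 5.31 (0.13 ± 0.12). Of 17 measured cilia genes, 0 rose, 2 fell and 15 did not pass, where 1.34% of all genes fell; the median was -0.03, as over all genes. Those that fell were the ciliary tektin Tekt1 (-1.22 ± 0.17) and the RFX factor gene Rfx2 (-0.85 ± 0.12). Foxj3 measured -0.09 ± 0.23 (adjusted p = 0.883), with overlapping groups.

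Members that lie next to each other in the genome, within 200 kb in the RefSeq table, were read together. Foxq1, Foxf2 and Foxc1 form one such run, Foxf1, Foxc2 and Foxl1 another, and Foxd2 and Foxe3 a pair. Foxc1, of mesoderm and eye, measured 4.06 and 4.26 in controls and 4.62 and 4.76 after proline (0.53 ± 0.14, adjusted p = 0.118). Its arrays did not overlap, but all of its signals were under the dim limit and its second probe set measured 0.04. Its neighbours measured 0.31 ± 0.19 for Foxq1 and -0.01 ± 0.13 for Foxf2. In the second run, Foxf1, of splanchnic mesoderm, measured -0.09 ± 0.12, Foxc2 -0.20 ± 0.18 and Foxl1 -0.10 ± 0.11. Foxe3, of the lens, measured 0.01 ± 0.13 beside Foxd2. None of these 8 neighbours passed.

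The remaining members were Foxb1 (0.14 ± 0.15), Foxb2 (-0.10 ± 0.13), the ovarian factor Foxl2 (0.05 ± 0.14), Foxi1 (-0.12 ± 0.11) and Foxs1 (-0.26 ± 0.11, adjusted p = 0.263), all with overlapping arrays. Of these, Foxb1 measured 4.747 and 5.057 in controls and 5.075 and 5.011 after proline (limma adjusted p = 0.679). Fibroblast markers, a check on other cells, had 0 of 5 past the threshold and summed signals of 9.39 and 8.89 in controls and 8.90 and 9.42 after proline. Trophoblast markers had 1 of 6, Eomes, which is also in the Nodal list. Their median log2 fold change was 0.63, with 5 of 6 above 0 and Tfap2c at -0.69, and 2 were under the dim limit in both groups. Their summed signal was 10.45 and 10.69 in controls and 10.51 and 10.82 after proline. Multiciliated cell markers had 1 of 4, Tekt1, which fell, with the others not past the threshold. Over all genes, 3.03% were called higher and 1.34% lower.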

How the data were processed

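The authors deposited log2 signals for 45101 probe sets on each of 12 Affymetrix arrays. The submitters' processing notes name MAS5 and RMA without a version, and which of them made these values is not given in the sources used here. Values ran from 2.10 to 14.8 with array medians of 5.99 to 6.03. Detection calls were not used here. Precision is limited by having 2 biological replicates a group.

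Gene symbols came from the platform annotation, checked by gene ID in a RefSeq table (GRCm38.p6). Of the probe sets 34945 had 1 symbol, 932 several and 9160 are unnamed here; 64 are array controls. The 4 replicate means entered limma 3.58.1 (lmFit and eBayes, R 4.3.3) with group as the only term. Two-sided p-values were adjusted by Benjamini-Hochberg over 18193 genes, and 0.05 was the threshold. Errors of fold changes are moderated SEs. Degrees of freedom were 2 residual and 2.60 prior. An exact permutation test of 2 against 2 cannot go below a two-sided p of 0.333, so every p rests on limma's model. The procedure was tested on simulated data.

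Every member is given with its values. The rule for fuller values took members past the threshold, those at least 2-fold apart, the 5 with the brightest control signal and 12 chosen by role; of other lists, genes past the threshold and those with the smallest p. Genes given beside these (Nodal, Smad2, Smad3, Tdgf1, Lefty1, Furin, Cfc1, Pou5f1) show a pathway's parts. Protein stretches were planned and are not shown. Members and lists were chosen with earlier results of these data known. The 14 alternatives cover normalization, filtering, probe set choice, array handling, replicate block, prior, threshold and leaving out each replicate. Plots were drawn with matplotlib 3.10.9.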

Additional observations from a re-analysis of the deposited data

Results flagged for a closer look

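Single arrays stood apart in 3 of the 74 groups of 6 arrays checked over the 37 forkhead genes, by the size of their gap to the nearest array relative to the range of the group. Chance flags about 1 in 20 groups of 6 independent arrays. Here each group is 2 biological replicates of 3 arrays, so that rate need not hold. The cause of these 3 was not tested. Foxj2 read 6.836 on control array 2c, against 7.055 to 7.166 on the other control arrays. Foxk1 read 7.660 on control array 1c, against 7.938 to 8.059. Foxd4, at a dim signal, read 4.652 on proline array 2c, against 3.915 to 4.183.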

How the results depend on the processing

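The counts of forkhead genes past the threshold, 2 higher and 0 lower, depend on the unit tested. The number higher was 1 with the median over probe sets and with an intensity trend, 0 with every probe set tested by itself, 6 with arrays fitted singly under a random block for the biological replicate, and 7 with arrays taken as independent. The number lower was 1 after median centring, among genes at or above the 40th percentile and at an adjusted p of 0.1, 2 with the random block and 5 with independent arrays. With the replicate block the family had 3 higher and 2 lower (Foxh1, Foxj2, Foxn3, Foxd3 and Foxn4) and all genes 2039. The labels tie replicates across the groups by number only. Control 2 minus control 1 and proline 2 minus proline 1 had r = 0.338 over genes. In both groups, replicate 2 had higher 5′ over 3′ ratios than replicate 1 and a lower 18S signal (10.74 and 10.04 in controls, 9.74 and 8.35 after proline). Whether equal numbers shared a batch was not tested. The main fit has no replicate term, and the block result is given here alone. Over all genes the 794 called became 351 with the median over probe sets, 45 probe sets, 3987 with the random block, 6804 with independent arrays and 1800 at an adjusted p of 0.1. Leaving out a replicate left 0 in each count, where the lone sample of a group is assumed to vary like the other group; limma then gave 2766 to 3676 genes below an unadjusted 0.05. The family median was 0.036 after quantile normalization, 0.050 among brighter genes, -0.036 with the median over probe sets, and -0.004 to 0.041 with a replicate left out.

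Of 467 values of single members under the alternatives, 412 kept their direction and side of the threshold, 21 newly passed, 12 (Foxh1 and Foxj2) no longer passed and 22 changed sign, in genes that did not pass. Foxk1 became -0.418 and Foxn1 -0.141 with the median over probe sets, and Foxf2 0.014 after quantile normalization. With a replicate left out the ranges were -0.607 to 0.024 for Foxo3, -0.345 to 0.170 for Foxj3, -0.587 to 0.041 for Foxp4, -0.044 to 0.385 for Foxa1, -0.091 to 0.350 for Foxk1, -0.014 to 0.296 for Foxb1, -0.204 to 0.008 for Foxb2, -0.403 to 0.005 for Foxc2, -0.033 to 0.212 for Foxd2, -0.206 to 0.131 for Foxd4, -0.072 to 0.101 for Foxe3, -0.109 to 0.088 for Foxf2, -0.070 to 0.170 for Foxl2, -0.041 to 0.072 for Foxn1 and -0.100 to 0.278 for Foxp2. Members that kept their sign but moved by over 1.5 times ranged from 0.087 to 0.565 for Foxa2, 0.274 to 1.191 for Foxa3, -0.716 to -0.212 for Foxd1, -0.184 to -0.004 for Foxf1, 0.041 to 0.221 for Foxj1, 0.138 to 0.906 for Foxk2, -0.159 to -0.050 for Foxl1, 0.043 to 0.191 for Foxm1, 0.514 to 1.038 for Foxn3, -0.865 to -0.421 for Foxn4, 0.051 to 0.582 for Foxo1, 0.289 to 0.679 for Foxo4, -0.722 to -0.082 for Foxp1, -0.351 to -0.103 for Foxp3 and 0.076 to 0.536 for Foxq1. The cause of these changes was not tested. Detection calls were not used, so a signal under the dim limit is not separated from background here.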
